A study of Mus musculus with 36 samples.

Results

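The genes described here are those of excitation-contraction coupling and calcium handling in myotubes of C2C12, a mouse myoblast line whose cells fuse into multinucleate myotubes in low serum. A list of 46 genes was matched by gene name to the 55416 genes in the count table, and 44 of them passed a filter of at least 1 CPM (a count scaled to a library of 1000000 reads) in at least 12 of the 36 libraries. In all, 13995 genes passed it. The list falls into 4 classes by role: 16 genes of the triad and T-tubule, 12 of the sarcoplasmic reticulum (SR) store and its refilling, 8 of the acetylcholine receptor and membrane excitability, and 10 of calcium signalling and buffering. The filter removed *Sln* and *Pln*, both of the SR class.

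The study asked how the long non-coding RNA *Tug1* shapes the response of myotubes to an exercise-like stimulus. Myotubes were transfected a day before use with an antisense locked nucleic acid (LNA) directed at *Tug1* (*Tug1* KD) or with a negative control LNA (control), and were used on day 4 of differentiation. They were then kept unstimulated beside unconnected electrodes (Rest), or were driven by electrical pulse stimulation (EPS) for 3 h and lysed straight away (EPS 0h) or after a further 3 h (EPS 3h). This gave 6 groups of 6 libraries, all from the same cell line. The methods describe triplicate wells from a pair of independent experiments, so p-values measure in part the spread between wells.

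In skeletal muscle an action potential runs from the surface into the T-tubule. There the voltage-sensing calcium channel touches the ryanodine receptor of the SR membrane and opens it. Calcium leaves its buffer calsequestrin, drives contraction and is pumped back by the SR calcium ATPase, while STIM and ORAI proteins refill the store from outside the cell. At the nerve ending the signal begins at the acetylcholine receptor, whose clustering needs the kinase MuSK, and part of the calcium is read by calmodulin kinase II and by the phosphatase calcineurin, which alter gene expression.

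Libraries held 17005079 to 24181167 counts on genes. *Tug1* was lower with the *Tug1* LNA in all 3 states, by 0.83, 0.57 and 0.51 on the log2 scale at Rest, EPS 0h and EPS 3h (FDR = 0.000915, 0.0178 and 0.0414), with the libraries apart at Rest and overlapping after EPS. Libraries with replicate numbers 1 to 3 parted from those numbered 4 to 6 across all genes, except that replicate 3 at EPS 3h, in control and in *Tug1* KD, correlated more with the set 4 to 6. Of 14 myotube markers 13 passed the filter, while *Tnnc2* was near 0. Their summed level ran from 13690.0 to 21210.0 reads per 1000000 (RPM, below) over the 36 libraries, and 0 of the 13 was called in any comparison of *Tug1* KD with control. EPS in control called 0 of the 13, whereas in *Tug1* KD 1 was lower at EPS 0h (*Tnnt3*) and 3 at EPS 3h (*Myog* -0.29, *Myh1* -0.32 and *Mymx* -0.56 on the log2 scale), and their part in the EPS results was not tested. The summed level of 12 markers of proliferating or reserve myoblasts, none of which was at 0, ran at Rest from 399 to 503.5 RPM in control and from 337.5 to 406 in *Tug1* KD libraries. It ran from 348 to 412 and from 294.5 to 322 at EPS 0h, and from 252 to 330.1 and from 239.9 to 295 at EPS 3h. Of these 12 markers 1 was lower with *Tug1* KD in each state (*Id1*, *Id3* and *Ccnb1*), and the part of these cells in the results below was not tested. In such bulk RNA a smaller share of a cell type and less RNA per cell cannot be told apart.

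Expression is given as reads per 1000000 after scaling by TMM factors (RPM) and, between genes, as RPM per kb of annotated exons. On the per-kb scale the 44 genes covered a wide range of levels in Rest control myotubes, from 312 in *Chrna1*, the acetylcholine-binding subunit of the receptor, to 0.291 in *Clcn1*, the muscle chloride channel, with a median of 17.9. A level above 100 on this scale was found for 8 of the 44 genes at Rest, among them the membrane-bending protein *Bin1* (188), the fetal receptor subunit *Chrng* (166), *Cacng1* (159.7) and the calsequestrin *Casq2* (127). A level under 2 was found for 8 genes, including *Chrne* (1.77), the adult receptor subunit, *Pvalb* (1.08), the cytosolic calcium buffer of fast fibres, and *Ryr3* (0.880). *Sln* and *Pln*, the small proteins that restrain the SR pump, had at most 4 and 3 counts in any library, so no comparison could be made for either. Of the 46 genes, 11 overlap another annotated protein-coding gene, among them *Ryr3*, *Atp2a1*, *Atp2a2*, *Chrne*, *Scn4a* and *Itpr3*. The strand setting of the counting is not given in the sources used here, so their values may hold reads of the neighbour.

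Start-site sequences were matched for 30 of the 46 genes in the RefSeq promoter table (made on GRCm38.p6, found without mismatch in GRCm39, whose coordinates are used here). Muscle regulatory factors such as MyoD and myogenin bind E-boxes, spelled CANNTG, which read the same on the opposite strand, and CAGCTG, a subset of it, is a form that they often bind. The RefSeq start was more than 1000 bases from the GENCODE gene start for 6 of the 30 (*Casq1*, *Atp2a1*, *Pln*, *Chrng*, *Scn4a* and *Rcan1*), and 16 of the 30 windows, those of *Cacna1s* and *Chrng* included, lie inside the GENCODE gene span. In the 200 bases before the RefSeq start, 19 of the 30 genes (63.3%) held CANNTG and 10 (33.3%) held CAGCTG, against 49.6% and 10.4% of the 13438 promoters of tested genes. Of the 8 matched genes that were higher with *Tug1* KD in at least 1 state, 4 held CANNTG and 3 held CAGCTG, of the 4 matched genes that were lower 3 and 2 did, and of the 4 matched acetylcholine receptor subunit genes 4 and 3 did. A match is a description of the letters and says nothing of binding. The following 4 are shown because *Cacna1s* and *Musk* were higher with *Tug1* KD whereas no change was called for *Chrna1* and *Chrng*, although all 4 carry the motif. They are written 5′ to 3′ on the strand of the gene, with CANNTG in capitals.
*Cacna1s* (GRCm39 chr1:135980349-135980548, plus strand): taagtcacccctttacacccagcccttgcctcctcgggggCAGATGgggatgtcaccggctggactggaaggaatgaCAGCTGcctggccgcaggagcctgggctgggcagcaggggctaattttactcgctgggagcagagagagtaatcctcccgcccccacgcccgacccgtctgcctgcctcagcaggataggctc
*Musk* (GRCm39 chr4:58285762-58285961, plus strand): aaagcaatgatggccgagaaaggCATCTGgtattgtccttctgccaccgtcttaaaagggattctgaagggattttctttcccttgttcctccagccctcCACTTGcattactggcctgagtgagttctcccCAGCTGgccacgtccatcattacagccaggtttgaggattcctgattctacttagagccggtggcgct
*Chrna1* (GRCm39 chr2:73410683-73410882, minus strand): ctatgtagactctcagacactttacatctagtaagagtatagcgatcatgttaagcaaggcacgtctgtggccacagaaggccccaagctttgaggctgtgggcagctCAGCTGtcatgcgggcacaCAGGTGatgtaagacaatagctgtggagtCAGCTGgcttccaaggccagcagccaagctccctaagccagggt
*Chrng* (GRCm39 chr1:87133333-87133532, plus strand): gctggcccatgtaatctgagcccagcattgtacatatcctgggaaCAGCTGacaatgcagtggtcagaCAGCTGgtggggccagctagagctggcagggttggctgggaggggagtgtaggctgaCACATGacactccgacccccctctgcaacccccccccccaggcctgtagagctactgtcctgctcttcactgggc

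The comparison of *Tug1* KD with control myotubes asked how these genes differed where *Tug1* was lowered, not removed, in each state. Mean *Tug1* in control was 48.4, 67.5 and 81.3 RPM at Rest, EPS 0h and EPS 3h. In *Tug1* KD it was 27.2, 45.5 and 57.0 RPM. The *Tug1* KD means after EPS were thus near or above that of Rest control. With *Tug1* KD the channel genes *Cacna1s* and *Cacna2d1*, *Dysf*, *Ryr3*, *Casq2*, *Srl*, *Musk* and *Ppp3ca* were higher in each state, and the fast-fibre SR genes *Atp2a1* and *Casq1* were lower. None of the 5 acetylcholine receptor subunit genes was called without pairing. At Rest 10 of the 44 genes were higher and 3 lower at a false discovery rate (FDR) under 0.05, that is 22.7% and 6.82%, whereas 5.54% and 4.47% of all 13995 genes were (10.0% in either direction). Directly after EPS the counts were 12 and 6 (27.3% and 13.6%; all genes 8.25% and 6.07%, 14.3% in either direction). After recovery they were 12 and 3 (27.3% and 6.82%; all genes 6.38% and 5.11%, 11.5% in either direction). The share of higher genes among the 44 was thus above that of all genes in the 3 states. With replicate numbers as pairs, 18 genes were higher and 8 lower directly after EPS (all genes 13.1% and 11.2%), and 17 and 4 after recovery (10.8% and 9.75%). The labels do not state that libraries of the same number belong together. Such pairs may do no more than take out the difference between replicates 1 to 3 and 4 to 6. The median log2 fold change (log2FC) of the 44 genes was 0.09, 0.10 and 0.08, against -0.03, -0.00 and -0.01 over all genes. The 3 comparisons share no library, but they come from the same pair of experiments and 1 fit, so they are not independent repeats. In each of them 8 genes were higher (*Cacna1s*, *Cacna2d1*, *Dysf*, *Ryr3*, *Casq2*, *Srl*, *Musk* and *Ppp3ca*) and 2 lower (*Atp2a1* and *Casq1*). How many of all genes were called in each of the 3 states was not counted. No member was called in opposite directions in different states, and 38 of the 44 had a log2FC of the same sign in the 3 states. Each call also kept its sign in either replicate set (numbers 1 to 3, numbers 4 to 6). The calls were made on these same libraries, so that agreement is largely given by the selection and is no separate check. No share over all called genes is given here.

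**Figure D1:**
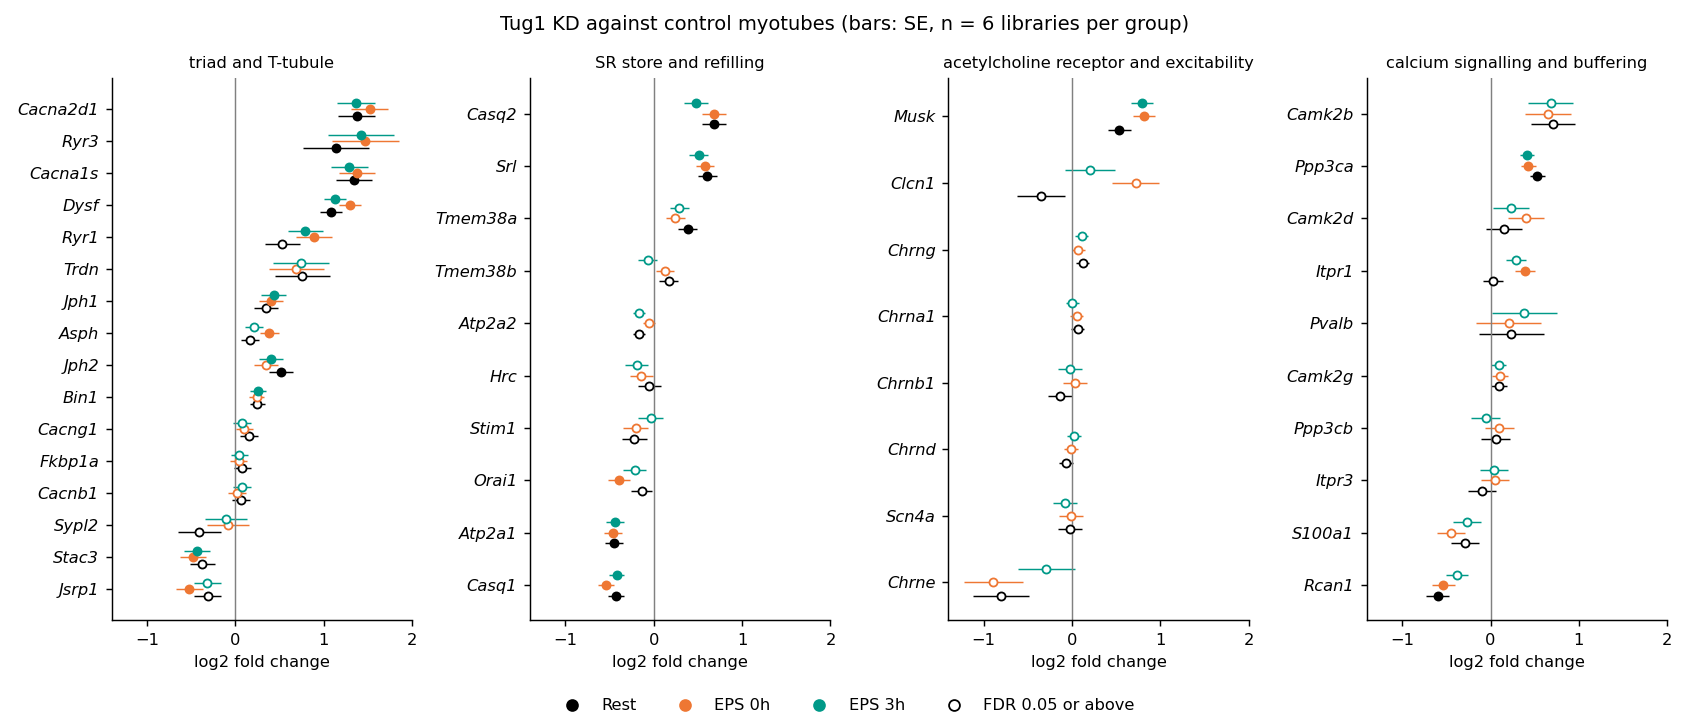
Log2FC of *Tug1* KD against control myotubes (horizontal axis) for the 44 genes, 1 panel per class, at Rest (black), EPS 0h (orange) and EPS 3h (green); bars are standard errors from the edgeR fit, n = 6 libraries per group, and open symbols mark an FDR of 0.05 or above. Triad genes reach from *Cacna2d1* at 1.52 to *Jsrp1* at -0.52, and in the receptor panel filled symbols appear for *Musk* alone.

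Of the 16 triad and T-tubule genes, 5, 7 and 8 were higher with *Tug1* KD and 0, 2 and 1 lower, at Rest, EPS 0h and EPS 3h respectively. That is 31.2%, 43.8% and 50.0% higher and 0%, 12.5% and 6.25% lower. Of all genes 5.54%, 8.25% and 6.38% were higher and 4.47%, 6.07% and 5.11% lower. *Cacna1s*, the pore and voltage sensor of the T-tubule calcium channel (chr1:135980259-136047560), ran from 61.8 to 110.2 RPM (median 83.4) in Rest control libraries and from 183 to 254 (median 208) in Rest *Tug1* KD libraries. Every *Tug1* KD library lay above every control library, and the log2FC was 1.34 (SE 0.206, FDR = 1.64e-05). At EPS 0h it was 1.38 and at EPS 3h 1.29, again with no overlap. *Cacna2d1*, its auxiliary subunit that aids delivery to the membrane, was higher by 1.37, 1.52 and 1.37 at Rest, EPS 0h and EPS 3h (FDR = 1.96e-05, 3.1e-06 and 2.29e-05). The other subunits of the channel, *Cacnb1* and *Cacng1*, had values between 0.02 and 0.16 in the 3 states and were not called.

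*Dysf* encodes dysferlin, which acts in membrane repair and at the T-tubule (chr6:83985345-84188042). Its libraries ran from 47.3 to 67.5 RPM (median 57.8) in Rest control and from 109 to 132 (median 121) in Rest *Tug1* KD, with no overlap there, at EPS 0h or at EPS 3h. The log2FC was 1.09 (SE 0.124, FDR = 9.69e-08) at Rest, 1.30 at EPS 0h and 1.12 at EPS 3h. The junctophilins tether the T-tubule to the SR. *Jph2* went from 337 to 413 RPM (median 381) in Rest control to 483 to 584 (median 544) in Rest *Tug1* KD, without overlap (log2FC 0.52, SE 0.137, FDR = 0.00929). At EPS 3h it was higher by 0.41 (FDR = 0.0464; 0.0951 without replicate 3 of *Tug1* KD and 0.0501 with library size scaling) with overlapping libraries, and at EPS 0h its log2FC of 0.35 was not called (FDR = 0.0869; 0.026 with replicate numbers as pairs). *Jph1* was called at EPS 0h (0.40) and EPS 3h (0.43), and *Asph*, the locus of junctin, at EPS 0h (0.39). *Bin1*, which shapes the T-tubule membrane, had values of 0.25, 0.24 and 0.26 and was called at EPS 3h (FDR = 0.0454; 0.0899 without replicate 3 of *Tug1* KD). *Fkbp1a*, a protein bound to the ryanodine receptor, had values from 0.04 to 0.08, and *Sypl2*, mitsugumin 29 of the triad, had -0.41 at Rest (FDR = 0.357) and -0.08 and -0.11 after EPS.

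The ryanodine receptors are the calcium release channels of the SR. *Ryr1*, the main form of adult muscle (chr7:28702769-28824604), ran from 259.9 to 522 RPM (median 399.6) in Rest control and from 501 to 649 (median 551) in Rest *Tug1* KD. These ranges overlapped and the log2FC of 0.53 was not called (FDR = 0.0891), with 0.16 in replicates 1 to 3 and 1.02 in replicates 4 to 6. After EPS the control libraries lay at 178 to 404 RPM (EPS 0h) and 217 to 445 (EPS 3h), and *Tug1* KD libraries at 446 to 593 and 421 to 616. *Ryr1* was then higher with *Tug1* KD by 0.89 (SE 0.200, FDR = 0.00166, no overlap) and by 0.79 (SE 0.200, FDR = 0.00648). *Ryr3*, a form of developing and some adult muscles (chr2:112461699-113047441), ran from 6.91 to 25.9 RPM (median 16.96) in Rest control and from 25.7 to 48.2 (median 36.1) in Rest *Tug1* KD. Its libraries overlapped slightly and its standard error was the largest of the 44 genes at Rest (log2FC 1.14, SE 0.375, FDR = 0.0461; 0.0545 with library size scaling). At EPS 0h and EPS 3h its log2FC was 1.47 and 1.42. *Trdn*, triadin, had log2FC values of 0.76, 0.69 and 0.74 but an FDR of 0.13 to 0.15. With replicate numbers as pairs the FDR was 0.00023 at EPS 0h and 0.00018 at EPS 3h.

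Lower values in this class belonged to *Stac3* and *Jsrp1*, which help the voltage sensor to reach and gate the ryanodine receptor. *Stac3* ran from 54.7 to 67.7 RPM (median 60.6) in EPS 0h control and from 41.9 to 44.6 (median 43.3) in EPS 0h *Tug1* KD, without overlap (log2FC -0.48, SE 0.147, FDR = 0.0228). At EPS 3h it was -0.43 (FDR = 0.0496; 0.131 without replicate 3 of the control) and at Rest -0.37 (FDR = 0.11). *Jsrp1* was called at EPS 0h (-0.52). In the same libraries, then, the voltage-sensor gene was higher and the gene of its partner protein was lower.

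**Figure D2:**
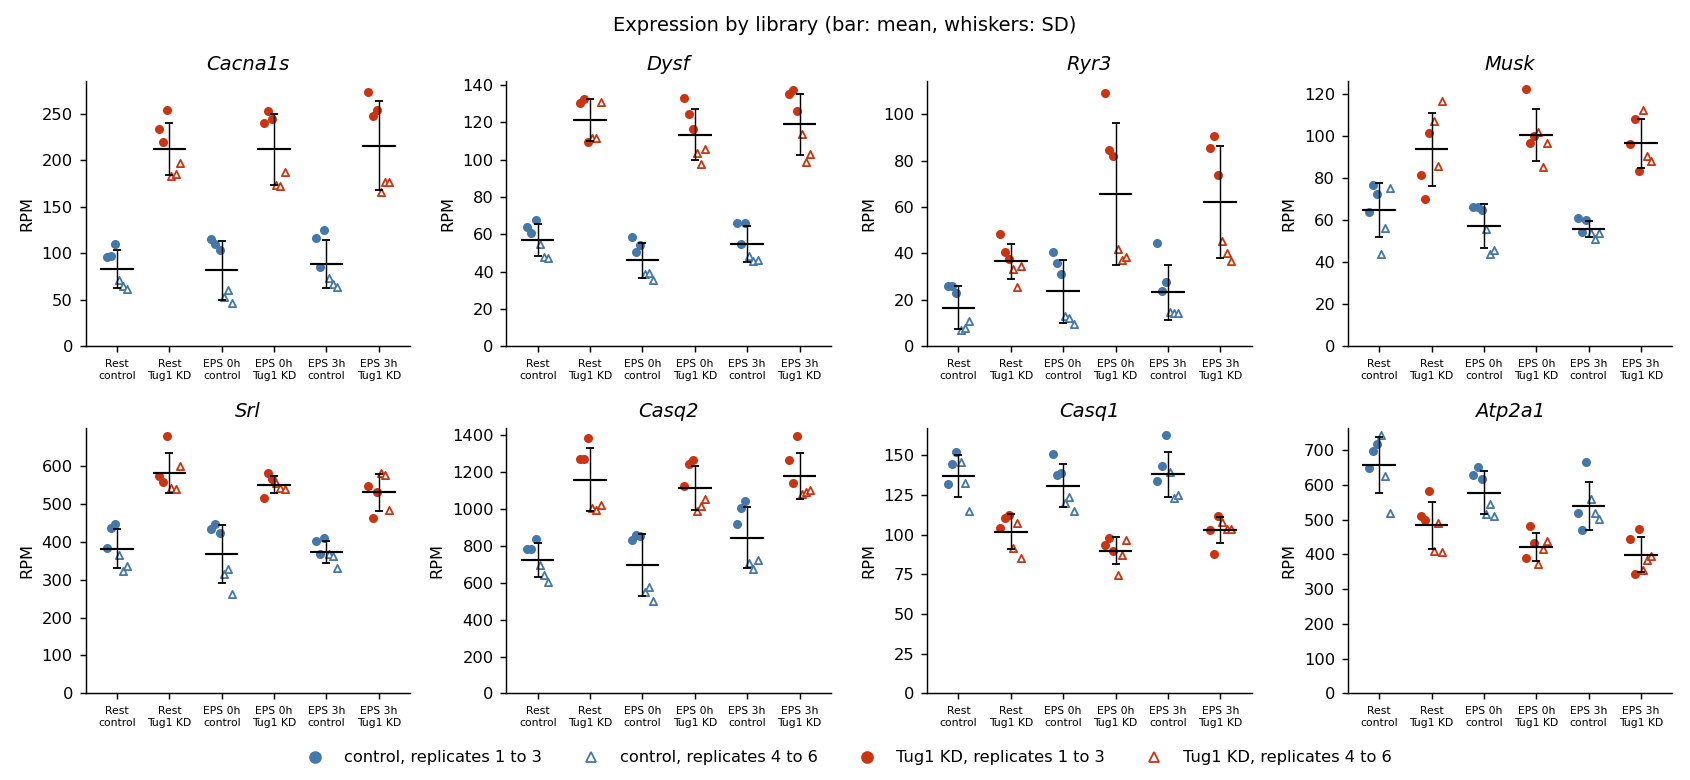
Expression (RPM, vertical axis from 0) of 8 genes in the 36 libraries by group, control in blue and *Tug1* KD in red, circles for replicates 1 to 3 and open triangles for replicates 4 to 6; lines are means and whiskers SD (n = 6). The blue and red symbols separate fully in each state for *Cacna1s*, *Dysf*, *Srl*, *Casq2* and *Casq1*, in opposite directions for *Casq2* and *Casq1*.

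In the SR class, 3, 2 and 2 of the 10 tested genes were higher with *Tug1* KD and 2, 3 and 2 lower, in the same order. In either direction 50.0%, 50.0% and 40.0% of the class were called, against 10.0%, 14.3% and 11.5% of all genes. The calsequestrins, which buffer calcium inside the SR, moved in opposite directions. *Casq2*, the form of cardiac and slow muscle (chr3:101993234-102056307), ran from 604 to 835 RPM (median 739) in Rest control and from 996 to 1384 (median 1147) in Rest *Tug1* KD. *Casq1*, the form of fast muscle (chr1:172037459-172049328), ran from 115 to 152 RPM (median 138) in Rest control and from 85.0 to 112 (median 106) in Rest *Tug1* KD. Neither gene's libraries overlapped between control and *Tug1* KD in any state. The log2FC of *Casq2* was 0.68 at Rest (SE 0.133, FDR = 0.000506), 0.68 at EPS 0h and 0.48 at EPS 3h, and that of *Casq1* was -0.43 (SE 0.0877, FDR = 0.000915), -0.54 and -0.42.

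The SR pump genes fell or were not called. *Atp2a1*, the pump of fast fibres (chr7:126045013-126063423), ran from 519 to 744 RPM (median 673) in Rest control and from 407 to 583 (median 495) in Rest *Tug1* KD, with overlap at Rest and EPS 3h and none at EPS 0h. Its log2FC was -0.45 (SE 0.102, FDR = 0.00276), -0.46 and -0.43 in the 3 states. *Atp2a2*, the pump of slow and cardiac muscle (chr5:122591575-122640903), ran from 789 to 873 RPM (median 865) and from 678 to 829.2 (median 743) at Rest, and its values of -0.17, -0.06 and -0.17 were not called (FDR = 0.131, 0.663 and 0.121). *Srl* encodes sarcalumenin, a luminal calcium-binding protein. It ran from 322 to 448 RPM (median 374) in Rest control and from 538 to 678 (median 565) in Rest *Tug1* KD, without overlap in any state, and its log2FC was 0.61 (SE 0.104, FDR = 7.78e-05), 0.58 and 0.51. *Tmem38a*, a counter-ion channel of the SR, was called at Rest (0.38), and *Orai1*, the store-operated channel of the plasma membrane, was lower at EPS 0h (-0.40, SE 0.124, FDR = 0.0262), where its libraries ran from 25.4 to 36.3 RPM (median 32.9) in control and from 17.3 to 29.4 (median 24.4) in *Tug1* KD. *Stim1*, the calcium sensor of the store, was not called in any state, with values from -0.22 to -0.04, and neither were *Tmem38b* (-0.07 to 0.17) and *Hrc*, a calcium-binding protein of the SR lumen (-0.19 to -0.05).

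In the receptor and excitability class 1 of 8 genes was called in each state, and it was *Musk* each time. This share of 12.5% was near the 10.0%, 14.3% and 11.5% of all genes called in either direction. With replicate numbers as pairs *Clcn1* (log2FC 0.72, FDR = 0.061; 0.019 with pairs) and *Chrne* also passed at EPS 0h. *Musk* (chr4:58285931-58377847) ran from 43.8 to 76.7 RPM (median 67.8) in Rest control and from 69.8 to 116 (median 93.3) in Rest *Tug1* KD, and the ranges overlapped. After EPS they did not: control libraries lay at 43.6 to 66.4 RPM at EPS 0h and 50.8 to 61.1 at EPS 3h, and *Tug1* KD libraries at 85.0 to 122 and 83.2 to 112. The log2FC was 0.53 at Rest (SE 0.128, FDR = 0.00412; 0.25 in replicates 1 to 3 and 0.82 in replicates 4 to 6), 0.81 at EPS 0h and 0.79 at EPS 3h. Of the receptor subunits, *Chrna1*, *Chrnb1*, *Chrnd* and *Chrng* had values between -0.14 and 0.12 in the 3 states, all with FDR of 0.389 or above. *Chrng* ran from 615 to 778 RPM (median 707) in Rest control and from 692 to 853 (median 751) in Rest *Tug1* KD, and *Chrnd* from 353 to 459 (median 395) and from 353 to 403 (median 382). *Chrne* was near the filter, from 1.83 to 4.48 RPM (median 3.13) in Rest control and from 0.626 to 2.94 (median 1.73) in Rest *Tug1* KD, and its log2FC of -0.80, -0.89 and -0.29 was not called (FDR = 0.115, 0.0726 and 0.656; 0.0025 at EPS 0h with replicate numbers as pairs). *Scn4a*, the muscle sodium channel, had values from -0.08 to -0.01.

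In the calcium signalling class 1, 2 and 1 of the 10 genes were higher with *Tug1* KD and 1, 1 and 0 lower, in the same order. In either direction the share called was above that of all genes at Rest and EPS 0h, where 10.0% and 14.3% of all genes were called. At EPS 3h it was 10.0%, below the 11.5% of all genes. *Ppp3ca*, a catalytic subunit of calcineurin (chr3:136375445-136643491), ran from 75.1 to 89.4 RPM (median 83.3) in Rest control and from 110.5 to 131 (median 116) in Rest *Tug1* KD. No library overlapped in any of the 3 states, and the log2FC was 0.53 (SE 0.0835, FDR = 2.72e-05), 0.43 and 0.41. *Rcan1*, an inhibitor of calcineurin and itself a target of the calcineurin pathway (chr16:92188840-92267755), ran from 155 to 179 RPM (median 161) in Rest control and from 94.5 to 127 (median 112) in Rest *Tug1* KD. It was lower without overlap at Rest (log2FC -0.60, SE 0.130, FDR = 0.00163) and at EPS 0h (-0.54, SE 0.130, FDR = 0.00363). At EPS 3h its value was -0.38 with overlapping libraries (FDR = 0.0504; 0.0016 with replicate numbers as pairs). *Rcan1* and *Ppp3ca* thus lay on opposite sides of control at Rest and EPS 0h, but their relatives did not all follow. *Rcan2* was higher in these 2 states (0.38 and 0.26, FDR = 0.0025 and 0.041) and *Rcan3* lower (-0.70 and -0.80). The other catalytic subunit genes were not called, with 0.02 and -0.01 for *Ppp3cc*. *Itpr1*, an inositol trisphosphate receptor, was called at EPS 0h (0.39). The kinase gene *Camk2b* had values of 0.71, 0.65 and 0.68 with an FDR of 0.069 to 0.086. With replicate numbers as pairs its FDR was 1.6e-05 directly after EPS and 1.8e-05 after recovery. *Camk2d* had 0.15, 0.40 and 0.23 (FDR = 0.772, 0.196 and 0.543; 0.0086 at EPS 0h with pairs). The other genes of the class, *Camk2g*, *Ppp3cb*, *Pvalb*, *Itpr3* and the calcium sensor *S100a1*, were not called and had values from -0.45 (*S100a1* at EPS 0h; FDR = 0.012 with pairs) to 0.38 (*Pvalb* at EPS 3h).

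The members that were higher with *Tug1* KD also lay in longer genes. In the annotation 12 of the 44 genes span more than 100 kb, and 4, 8 and 6 of them were higher with *Tug1* KD at Rest, EPS 0h and EPS 3h and 0 lower, against 6, 4 and 6 of the 32 shorter genes. Among all genes tested, 19.8%, 30.5% and 23.4% of the 1822 longer than 100 kb were higher, and 3.41%, 4.90% and 3.82% of the 12124 others. Only 13, 9 and 10 of the 1822 were lower, so 0 lower among 12 long members is near what all long genes show. The Spearman rank correlation of span with log2FC was 0.619, 0.718 and 0.698 over the 44 genes and 0.324, 0.420 and 0.335 over all 13946 genes with a span, given as a description across genes that share the same libraries. Higher members of at most 100 kb included *Cacna1s* (67.3 kb), *Srl* (65.6 kb), *Casq2* (63.1 kb) and *Musk* (91.9 kb). These 4 spans are above the median of 23.2 kb of all tested genes not called at Rest. *Tmem38a*, higher at Rest, is shorter at 15.4 kb, and the lower members *Atp2a1* and *Casq1* span 18.4 and 11.9 kb. After EPS, too, long genes were more often higher among all genes. In control 31.4% over 100 kb against 18.8% of the others were higher at EPS 0h, and 39.0% against 24.0% at EPS 3h. In *Tug1* KD these were 40.2% against 22.0%, and 41.0% against 23.9%. The Spearman correlation over the 44 genes was 0.36 and 0.39 in control and 0.508 and 0.417 in *Tug1* KD. The part of gene length in the results of *Tug1* KD and of EPS was not tested.

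**Figure D3:**
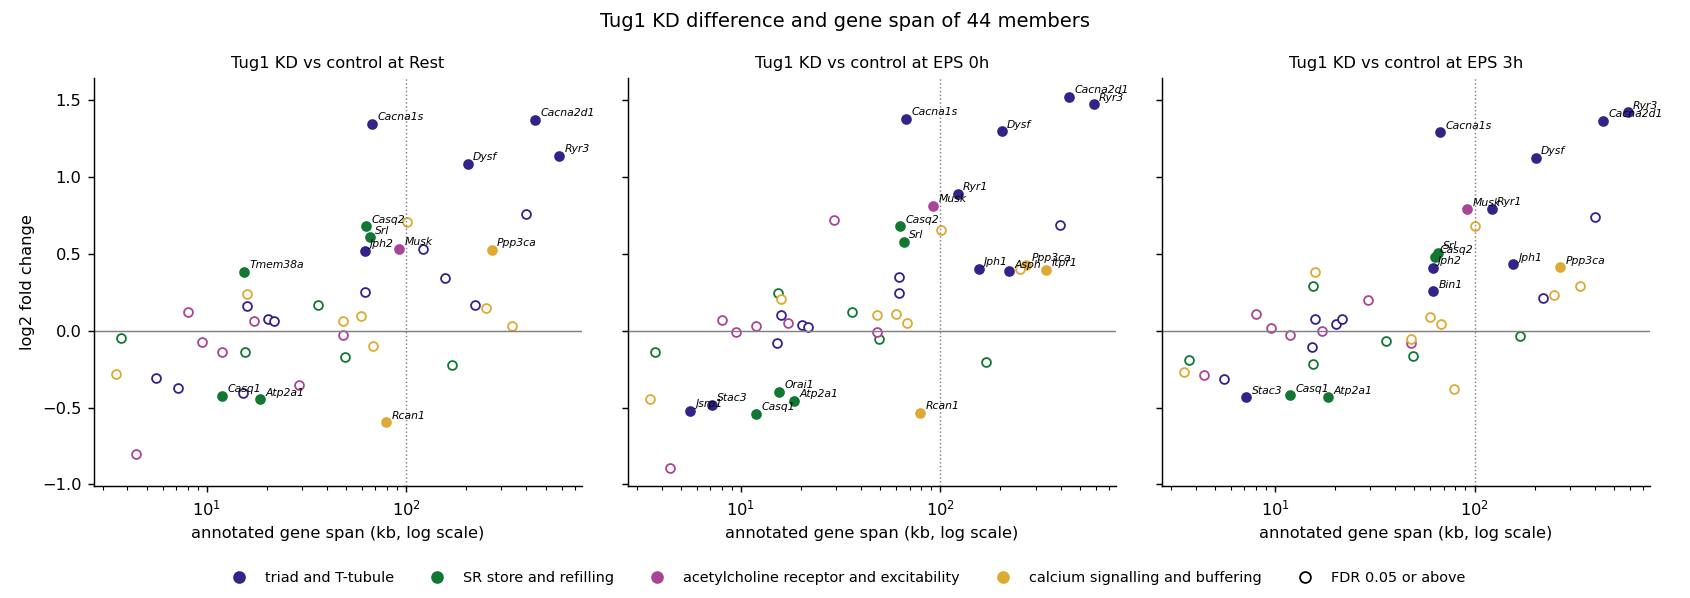
Annotated gene span (kb, log scale, horizontal axis) against the log2FC of *Tug1* KD over control (vertical axis) for the 44 genes in the 3 states, coloured by class, filled where FDR is under 0.05; the dotted line is at 100 kb. No filled symbol lies below 0 to the right of the line, where 13, 9 and 10 of all 1822 tested genes over 100 kb were lower.

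Ratios between related genes within a library do not depend on the scaling between libraries, and 4 were compared by an exact two-sided permutation test of group means over 7 comparisons (28 tests, Benjamini-Hochberg adjusted; the smallest raw p that 6 against 6 libraries can give is 0.00216). The log2 ratio of *Casq1* to *Casq2* counts ran from -2.57 to -2.26 (median -2.42) in Rest control and from -3.62 to -3.21 (median -3.56) in Rest *Tug1* KD. It was lower with *Tug1* KD by 1.10, 1.25 and 0.92 in the 3 states, without overlap (adjusted exact p = 0.0121 in each). The log2 ratio of *Ryr1* to *Ryr3* ran from 4.22 to 5.23 (median 4.68) in Rest control and from 3.67 to 4.33 (median 3.90) in Rest *Tug1* KD. With *Tug1* KD it differed by -0.73 at Rest, -0.60 at EPS 0h and -0.62 at EPS 3h (adjusted exact p = 0.0303, 0.109 and 0.0341; 0.0461 at EPS 0h within pairs). For *Atp2a1* to *Atp2a2* the differences were -0.28, -0.40 and -0.27 (adjusted exact p = 0.0741, 0.0121 and 0.0642; 0.0461 at EPS 3h within pairs), with no overlap at EPS 0h. For *Chrne* to *Chrng* they were -1.02, -0.89 and -0.39 (adjusted exact p = 0.0303, 0.0341 and 0.242; 0.0461 at EPS 3h within pairs), where the log2 ratio itself was about -7.80 (median) in Rest control. Where a difference passed, it was toward the slow, cardiac or developmental form. In each of the 4 pairs that form is also the longer gene. *Casq2* spans 63.1 kb against 11.9 for *Casq1*, and *Ryr3* 586 against 122 for *Ryr1*. *Atp2a2* spans 49.3 kb against 18.4 for *Atp2a1*, and *Chrng* 8.04 against 4.42 for *Chrne*. Form and gene length cannot be told apart in these 4 ratios.

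**Figure D4:**
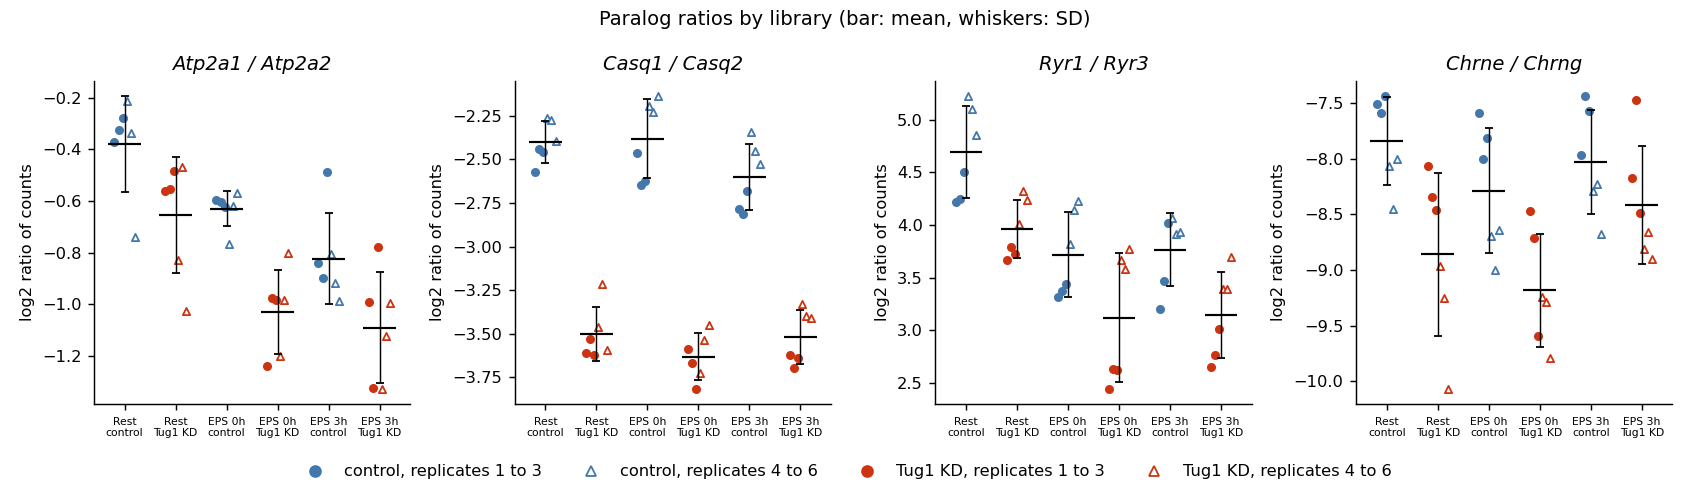
Log2 ratio of counts within each library (vertical axis, 1 panel per gene pair with its own range) by group, control in blue and *Tug1* KD in red, circles for replicates 1 to 3 and triangles for replicates 4 to 6; lines are means and whiskers SD (n = 6). The *Casq1* to *Casq2* ratio is separated between control and *Tug1* KD in each state, and the *Ryr1* to *Ryr3* ratio steps down between Rest and EPS.

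The comparison of stimulated with unstimulated myotubes asked how these genes differed from Rest after EPS, in control and in *Tug1* KD myotubes. No Rest group with a further 3 h of culture is labelled. At EPS 3h the stimulation and the further 3 h of culture therefore cannot be told apart. After EPS the sodium channel *Scn4a*, the voltage-sensor partners *Stac3* and *Cacng1*, *Jph2* and *Orai1* were lower, and the kinase gene *Camk2d* and the SR channel *Tmem38b* were higher, in each of the 4 comparisons. In control myotubes 3 genes were higher and 9 lower directly after EPS, 6.82% and 20.5% of the 44, against 20.5% and 18.4% of all genes (38.9% in either direction). After recovery 6 were higher and 8 lower, 13.6% and 18.2%, against 26.1% and 25.9% (52.0% in either direction). In *Tug1* KD myotubes 6 were higher and 8 lower directly after EPS, 13.6% and 18.2%, against 24.4% and 21.2% (45.6% in either direction). After recovery 6 were higher and 7 lower, 13.6% and 15.9%, against 26.2% and 25.9% (52.1% in either direction). The share of higher genes was below that of all genes in the 4 comparisons, while the place of the lower share depended on the scaling and the pairing. With TMM and no pairing it was near that of all genes directly after EPS and below it after recovery. EPS 0h and EPS 3h were compared with the same Rest libraries, so the 2 times are not independent. Scaling by library size alone moved the median log2FC of all genes by -0.17 (control) and -0.16 (*Tug1* KD) after recovery, and by -0.07 and -0.09 directly after EPS. It called 1 member higher and 17 lower, 3 and 18, 3 and 17, and 5 and 18 in the 4 comparisons in the order above. The lower share of the members was then 38.6%, 40.9%, 38.6% and 40.9%, against 24.9%, 39.5%, 29.7% and 40.5% of all genes. The higher share of all genes was then between 16.6% and 20.3%, again above that of the members. With replicate numbers as pairs control myotubes had 5 higher and 15 lower directly after EPS, and 11 and 12 after recovery, and *Tug1* KD myotubes had 9 and 15 directly after EPS. All genes then had 24.4% higher and 25.5% lower, 29.6% and 31.6%, and 27.9% and 29.0%, against 11.4% and 34.1%, 25.0% and 27.3%, and 20.5% and 34.1% of the members.

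**Figure D5:**
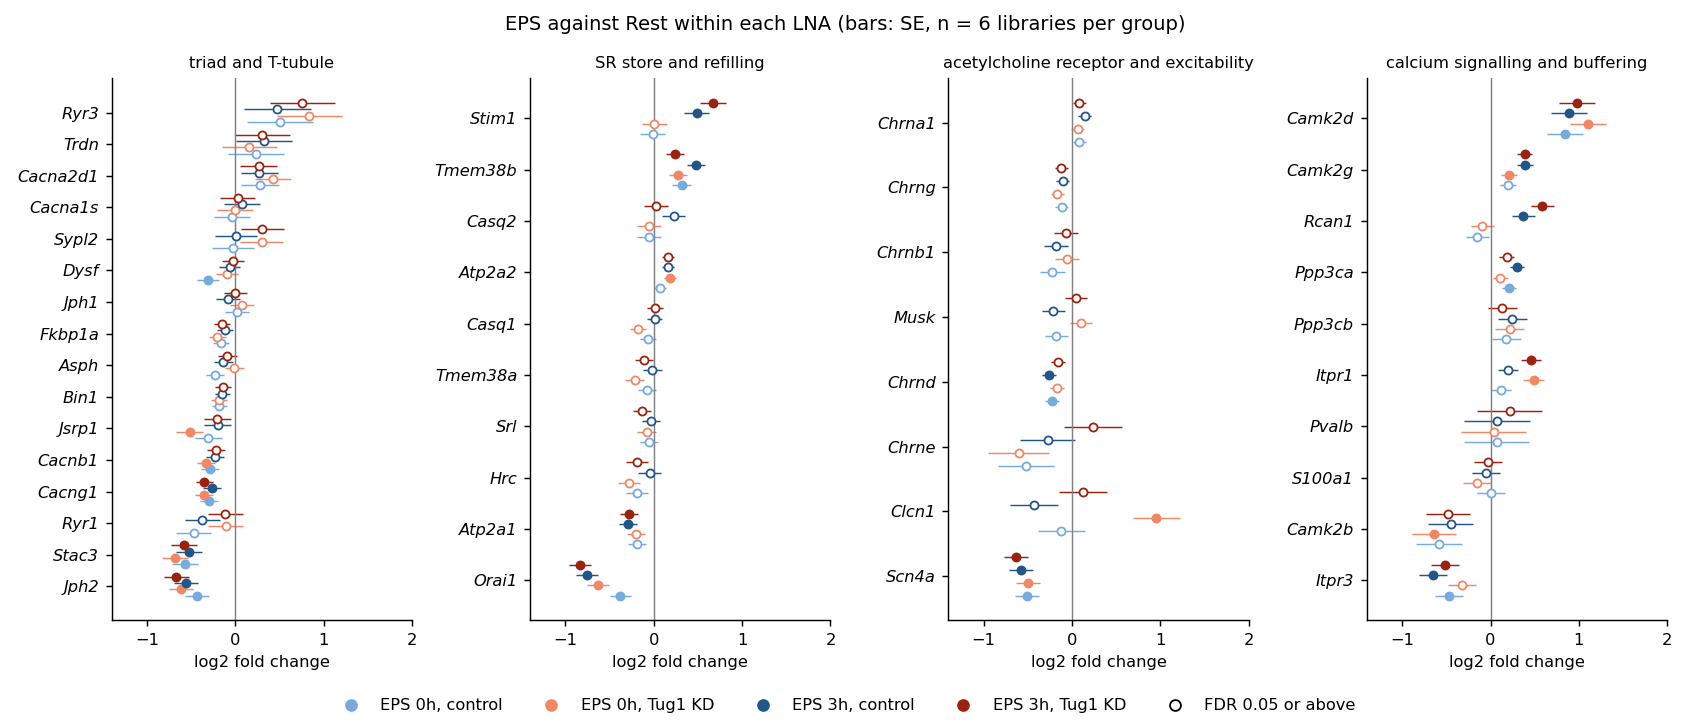
Log2FC of EPS against Rest (horizontal axis) for the 44 genes by class, light symbols for EPS 0h and dark for EPS 3h, blue in control and red in *Tug1* KD; bars are standard errors from the edgeR fit, n = 6 libraries per group, and open symbols mark an FDR of 0.05 or above. Filled symbols of the triad panel all lie below 0, whereas *Camk2d* reaches 1.10 and *Orai1* -0.84.

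In the triad class 0 genes were higher in any EPS comparison, against 20.5% to 26.2% of all genes, and 3 to 5 of 16 were lower. The lower share was 31.2% directly after EPS and 18.8% after recovery, in control and in *Tug1* KD alike. Of all genes 18.4% and 25.9% were lower in control, and 21.2% and 25.9% in *Tug1* KD. *Stac3* ran from 66.1 to 119 RPM (median 87.6) in Rest control, from 54.7 to 67.7 (median 60.6) at EPS 0h and from 52.4 to 77.9 (median 61.3) at EPS 3h. The ranges overlapped, and the log2FC was -0.57 (SE 0.147, FDR = 0.00210) and -0.52 (SE 0.147, FDR = 0.00295), larger in replicates 1 to 3 (-0.82 and -0.78) than in replicates 4 to 6 (-0.24 and -0.17). *Jph2* ran from 337 to 413 RPM in Rest control, from 240.4 to 328 (median 276) at EPS 0h, without overlap, and from 178 to 355 (median 259) at EPS 3h. Its log2FC was -0.44 (SE 0.137, FDR = 0.0107) and -0.55 (SE 0.137, FDR = 0.000920) in control and -0.61 and -0.67 in *Tug1* KD. *Cacna1s*, which was higher with *Tug1* KD in the 3 states, had EPS values between -0.03 and 0.08 in the 4 comparisons. *Dysf* was lower at EPS 0h in control (-0.31, FDR = 0.0476; not called by DESeq2) and not called in the other 3. The channel subunit gene *Cacng1* was lower by 0.30 and 0.27 in control (FDR = 0.0163 and 0.0243) and by 0.35 at each time in *Tug1* KD. *Cacnb1*, which brings the channel pore to the membrane, was lower at EPS 0h (-0.29 in control and -0.33 in *Tug1* KD), and *Jsrp1* at EPS 0h in *Tug1* KD (-0.52). *Ryr1* had values of -0.47 and -0.37 in control that were not called (FDR = 0.0586 and 0.113; 0.0057 and 0.025 with replicate numbers as pairs), and *Ryr3* 0.50 and 0.48 (FDR = 0.299 and 0.296; 0.011 and 0.0046 with pairs). Accordingly the log2 ratio of *Ryr1* to *Ryr3* was lower after EPS by 0.97 and 0.93 in control and by 0.84 and 0.81 in *Tug1* KD (adjusted exact p = 0.0152, 0.0121, 0.0303 and 0.0152).

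In the SR class the store-operated entry genes moved apart after 3 h of recovery. *Orai1* ran from 35.5 to 49.7 RPM (median 40.8) in Rest control, from 25.4 to 36.3 (median 32.9) at EPS 0h and from 20.8 to 29.3 (median 24.0) at EPS 3h, where no library overlapped with Rest. Its log2FC was -0.38 (SE 0.123, FDR = 0.0147) and -0.76 (SE 0.124, FDR = 3.95e-06) in control and -0.64 and -0.84 in *Tug1* KD. *Stim1* ran from 56.4 to 91.3 RPM (median 79.3) at Rest, from 60.0 to 90.4 (median 76.0) at EPS 0h and from 81.0 to 137 (median 98.8) at EPS 3h in control. Its log2FC was -0.01 at EPS 0h (FDR = 0.962) and 0.49 at EPS 3h (SE 0.143, FDR = 0.00462; 0.057 with library size scaling), and 0.01 and 0.67 in *Tug1* KD, where the EPS 3h libraries lay above those of Rest. *Tmem38b*, a cation channel of the SR, ran from 84.2 to 108 RPM (median 91.0) at Rest, from 100.2 to 140.3 (median 115) at EPS 0h and from 117 to 163 (median 125) at EPS 3h in control. Its log2FC was 0.32 (SE 0.103, FDR = 0.0140) and 0.48 (SE 0.103, FDR = 0.000196), and 0.27 (FDR = 0.0290) and 0.24 (FDR = 0.0499) in *Tug1* KD. With library size scaling the call held at EPS 3h in control (FDR = 0.012) and was lost in the other 3 (FDR = 0.064, 0.13 and 0.54). The call at EPS 3h in *Tug1* KD was also lost without replicate 3 of control (FDR = 0.0519) or of *Tug1* KD (FDR = 0.10). *Atp2a1* was lower at EPS 3h in control (-0.29, SE 0.102, FDR = 0.0179), where it ran from 471 to 666 RPM (median 520.0), and in *Tug1* KD (-0.28). The log2 ratio of *Atp2a1* to *Atp2a2* was lower after EPS by 0.25 and 0.44 in control and by 0.38 and 0.44 in *Tug1* KD (adjusted exact p = 0.0303, 0.0152, 0.0341 and 0.0326), while that of *Casq1* to *Casq2* differed by 0.02 and -0.20 in control (adjusted exact p = 0.892 and 0.0829; 0.0461 at EPS 3h within pairs). Within pairs the adjusted p of the pump ratio was 0.0795 at EPS 0h in control and in *Tug1* KD.

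Of the 8 genes of receptor and excitability, *Scn4a* was lower in the 4 comparisons. It ran from 60.8 to 93.2 RPM (median 76.5) in Rest control, from 40.4 to 70.2 (median 52.5) at EPS 0h and from 42.3 to 64.9 (median 49.8) at EPS 3h, overlapping with Rest at both times. The log2FC was -0.51 (SE 0.137, FDR = 0.00316) and -0.58 (SE 0.137, FDR = 0.000580) in control and -0.50 and -0.64 in *Tug1* KD, where no library overlapped. *Chrnd* was lower in control by 0.23 at EPS 0h (SE 0.0798, FDR = 0.0205) and by 0.26 at EPS 3h (SE 0.0798, FDR = 0.00701), from 353 to 459 RPM at Rest to 291 to 377 and 296 to 396. In *Tug1* KD its values were -0.17 and -0.16 and were not called (FDR = 0.0826 and 0.0824; 0.037 at EPS 0h with pairs). *Chrna1*, *Chrnb1*, *Chrng* and *Chrne* were not called in any EPS comparison, and their values ran from -0.61 (*Chrne*) to 0.24 (*Chrne*). With replicate numbers as pairs *Chrnb1* (-0.22, FDR = 0.0078) and *Chrne* (-0.52, FDR = 0.012) passed at EPS 0h in control. *Chrnb1* (-0.18, FDR = 0.029) and *Chrna1* (0.14, FDR = 0.0458) passed at EPS 3h in control, and *Chrne* (-0.61, FDR = 0.028) and *Chrng* (-0.17, FDR = 0.048) at EPS 0h in *Tug1* KD. *Clcn1* was called at EPS 0h in *Tug1* KD (0.95, and -0.12 in control with FDR = 0.744) at a level of 2.60 ± 0.836 RPM (SD, n = 6), against 1.33 ± 0.382 at Rest.

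In the signalling class *Camk2d*, a calmodulin kinase II gene (chr3:126389945-126639982), had the largest rise of the 44 genes in each EPS comparison. It ran from 52.2 to 92.1 RPM (median 72.3) in Rest control, from 83.4 to 166 (median 134) at EPS 0h and from 104.1 to 184 (median 117) at EPS 3h, where no library overlapped with Rest. The log2FC was 0.84 (SE 0.204, FDR = 0.00121) and 0.89 (SE 0.205, FDR = 0.000401) in control and 1.10 and 0.98 in *Tug1* KD. *Itpr1* was called in *Tug1* KD (0.49 at EPS 0h and 0.46 at EPS 3h) and had 0.12 and 0.20 in control (FDR = 0.415 and 0.148). Of the other kinase genes, *Camk2g* was higher by 0.39 at EPS 3h in control and in *Tug1* KD, and *Camk2b* was lower at EPS 0h in *Tug1* KD (-0.64, FDR = 0.036). In control *Camk2b* had -0.58 and -0.45 (FDR = 0.0701 and 0.139; 8.3e-05 and 0.0012 with pairs). *Rcan1* was called at the later time only: in control it ran from 155 to 179 RPM at Rest, from 127 to 177 (median 149.7) at EPS 0h and from 163 to 290.3 (median 205) at EPS 3h. Its log2FC was -0.15 at EPS 0h (FDR = 0.370) and 0.37 at EPS 3h (SE 0.129, FDR = 0.0154; 0.17 with library size scaling and 0.0746 without replicate 3), and -0.09 and 0.59 in *Tug1* KD (FDR = 0.000251 at EPS 3h). *Ppp3ca* was higher in control by 0.21 (SE 0.0834, FDR = 0.0446) and 0.30 (SE 0.0834, FDR = 0.00291), from 75.1 to 89.4 RPM at Rest to 81.9 to 108 (median 95.0) and 82.1 to 117 (median 102), and with library size scaling neither was called (FDR = 0.22 and 0.19). *Itpr3*, an inositol trisphosphate receptor, ran from 162 to 211 RPM (median 183) in Rest control, from 113 to 159 (median 133) at EPS 0h and from 70.3 to 152 (median 123) at EPS 3h, with no overlap at either time. Its log2FC was -0.47 (SE 0.160, FDR = 0.0185) and -0.65 (SE 0.160, FDR = 0.000874), and -0.32 (FDR = 0.0953; 0.0014 with pairs) and -0.51 in *Tug1* KD. In control 3 of the 10 genes of this class passed the test at EPS 0h and 5 at EPS 3h, or 30.0% and 50.0%, which is at or below the 38.9% and 52.0% of all genes. *Pvalb*, *S100a1* and *Ppp3cb* were not called in any comparison without pairing.

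Whether the response to EPS differed between control and *Tug1* KD myotubes was tested by the interaction term of the edgeR fit. In edgeR 0 of the 44 genes passed at EPS 0h and 0 at EPS 3h, against 0% and 0.00715% of all genes. At an unadjusted p under 0.05 there were 2 at EPS 0h and 0 at EPS 3h, and DESeq2 and limma-voom also called 0. The 2 were *Clcn1* (interaction log2FC 1.07, SE 0.376) and *Itpr1* (0.36, SE 0.161). The interaction estimates of the 44 genes ran from -0.26 to 1.07 at EPS 0h and from -0.24 to 0.56 at EPS 3h. For *Scn4a* they were 0.02 (SE 0.194) and -0.06 (SE 0.194) and for *Ryr1* 0.36 (SE 0.281) and 0.26 (SE 0.281). A miss of the threshold does not show that the responses were alike.

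Beside the 44 genes, 58 other genes of the same pathways were listed, of which 45 passed the filter. With *Tug1* KD 4, 8 and 4 were higher and 4, 5 and 5 lower in the 3 states, that is 8.89%, 17.8% and 8.89% higher and 8.89%, 11.1% and 11.1% lower, against 5.54%, 8.25% and 6.38%, and 4.47%, 6.07% and 5.11%, of all genes. The largest differences that passed were those of *Ache*, acetylcholinesterase (log2FC -1.03 at Rest, -0.81 and -0.55), *Atp2b1*, a calcium pump of the plasma membrane (0.70, 0.85 and 0.78), and *Rcan3*, a relative of *Rcan1* (-0.70, -0.80 and -0.74). In control 10 were higher and 11 lower directly after EPS (22.2% and 24.4%, all genes 20.5% and 18.4%), and 13 and 16 after recovery (28.9% and 35.6%, all genes 26.1% and 25.9%). In *Tug1* KD the counts were 13 and 10 (28.9% and 22.2%, all genes 24.4% and 21.2%), then 14 and 16 (31.1% and 35.6%, all genes 26.2% and 25.9%). *Homer1*, a scaffold of calcium channels, rose by 1.41 and 1.96 in control, from 21.5 ± 4.99 RPM to 56.9 ± 17.2 and 83.3 ± 26.4 (SD). The potassium channel genes *Kcnma1* and *Kcnj2* rose by 1.90 and 1.47 at EPS 0h. *Nfatc4*, a transcription factor that calcineurin activates, fell by 1.22 and 1.87.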

How the data were processed

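Poly-A RNA of 36 C2C12 myotube cultures was made into strand-specific libraries. The authors' tools, per the submitters' processing notes, included FastQC 0.11.7, fastp 0.14.1 and STAR 2.5 with GRCm39; the counting tool and its strand setting are not given in the sources used here. The deposited values are whole-number counts per gene without normalization, and 1492 of the 55416 genes have no gene name. Group and replicate number were read from each title, and no library was left out. Spike-in reads were not used here.

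Counts were fitted in R 4.3.3 with edgeR 4.0.16 (TMM, quasi-likelihood F-test with robust dispersion) on the 13995 genes with at least 1 CPM in at least 12 libraries, all 6 groups together, with Benjamini-Hochberg adjustment over all genes tested and a threshold of 0.05. The standard error is the size of the log2 fold change divided by the square root of F. RPM values use the TMM factors. Gene coordinates and exon lengths are from GENCODE for GRCm39. On simulated data for *Tug1* KD against control at Rest with 200 of 13995 genes changed by 1 on the log2 scale, 92% were recovered by edgeR with 10 false calls, 91.5% by limma-voom with 10 and 94% by DESeq2 with 21. Every pair of libraries of a group differed by more than counting error. Depth of 17005079 to 24181167 counts limits the precision of genes near 1 RPM.

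Replicate numbers were taken as pairs where same-numbered libraries correlated above 0.1 in every pair after centring within groups: *Tug1* KD against control directly after EPS (lowest 0.660) and after recovery (0.227), EPS against Rest in control at the earlier (0.217) and the later time (0.127), and at the earlier time in *Tug1* KD (0.163). This failed for *Tug1* KD against control at Rest (-0.117) and EPS 3h in *Tug1* KD (0.0622). Libraries of different numbers within a set were not compared in this way. The parting of the sets alone could therefore meet the limit, and the sources do not state that same-numbered wells belong together. Replicates 1 to 3 and 4 to 6 were treated as sets because the libraries part that way; the sources do not name the experiment of each number.

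Alternatives were DESeq2 1.42.0, limma-voom (limma 3.58.1), library size scaling, no filter on low counts, a replicate block, a term for the replicate set, each set alone, for the ratios a pseudocount of 5 in place of 0.5, and, chosen after seeing the data, leaving out replicate 3 at EPS 3h in control or in *Tug1* KD. The members, the lists and the tests were chosen with earlier results of these data known. Full values were given for the 2 genes of each class with the smallest FDR for *Tug1* KD at Rest and the 2 with the largest change at each EPS time in control, among those past 0.05, for members past an interaction and for the 4 gene pairs; others are given by their fold change, and *Cacna2d1*, *Trdn*, *Camk2b*, *Clcn1* and *Itpr1* were singled out after their values were seen.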

Additional observations from a re-analysis of the deposited data

Results flagged for a closer look

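In 138 groups of 6 libraries (23 genes by 6 groups) the extreme library was compared with the rest by Dixon's gap ratio, and 3 stood apart; chance flags about 1 in 20 groups. At EPS 3h in control, replicate 2 had 163.14 RPM of *Tmem38b* where the other libraries lay between 117 and 131 RPM. In the same group replicate 3 had 396.45 RPM of *Chrnd* where the others lay between 296 and 331. At EPS 3h in *Tug1* KD, replicate 2 had 87.907 RPM of *Casq1* where the others lay between 103 and 112. The gap lies on the side of the called change for *Tmem38b* and *Casq1* and against it for *Chrnd*.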

How the results depend on the processing

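Of the 99 calls of a member in a comparison, 0 reversed under any alternative and 47 lost the call under at least 1. The replicate block lost 0, DESeq2 1, limma-voom 3, library size scaling 12, no filter on low counts 20, replicates 1 to 3 alone 19 and replicates 4 to 6 alone 26. Counts below are genes higher or lower in the order of the alternatives named; the cause of these shifts was not tested.

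For *Tug1* KD at Rest the 3 lower genes became 6 with the replicate block, 6 with a set term, 1 in replicates 1 to 3 and 7 in replicates 4 to 6. With the replicate block control myotubes had 5 higher and 15 lower directly after EPS and 11 higher after recovery, and *Tug1* KD myotubes 15 lower and then 10 higher and 11 lower. The set term gave 5 and 14, 11 higher, 16 lower and 11 higher in the same order. Among all genes the set term called 3343 and 3394, 4095 higher, 3909 lower and 4028 higher. Without it these were 2872 and 2569, 3651, 2967 and 3668. The block called 3420 and 3562, 4146 higher, 4055 lower, then 4073 higher and 4514 lower of all genes. Library size scaling gave 1 and 17 directly after EPS and 3 and 18 after recovery in control, and 3 and 17, then 18 lower, in *Tug1* KD. The shares of all genes under this scaling are given with the EPS results above. Leaving out replicate 3 at EPS 3h in control or in *Tug1* KD gave 10 to 14 higher and 2 to 4 lower for *Tug1* KD against control, and lost 3 calls each. Of all genes 853 and 898 were then higher at EPS 3h and 717 and 703 lower, against 893 and 715 with all libraries. Without the filter there was 1 higher at EPS 0h in control and, in *Tug1* KD, 3 higher at EPS 0h and 14 lower at EPS 3h. Of the 39727 genes then tested the counts were 3752, 4562 and 5212. Replicates 1 to 3 alone gave 15 lower at EPS 0h and 13 lower at EPS 3h in *Tug1* KD, and replicates 4 to 6 alone 3 higher and 5 lower at EPS 0h. For all genes in *Tug1* KD, replicates 1 to 3 alone gave 3705 lower at EPS 0h and 3624 at EPS 3h. Replicates 4 to 6 alone gave 2220 higher and 1760 lower at EPS 0h.

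With the replicate block (permutation within pairs, smallest adjusted p 0.0461) the ratio differences that newly passed were *Atp2a1* to *Atp2a2* for *Tug1* KD at Rest (-0.28) and EPS 3h (-0.27), *Casq1* to *Casq2* at EPS 3h in control (-0.20), *Ryr1* to *Ryr3* for *Tug1* KD at EPS 0h (-0.60) and *Chrne* to *Chrng* for *Tug1* KD at EPS 3h (-0.39) and, in control, for EPS 0h (-0.45). Those lost were *Atp2a1* to *Atp2a2* at EPS 0h in control (-0.25), EPS 0h in *Tug1* KD (-0.38) and EPS 3h in *Tug1* KD (-0.44), each at 0.0795. Where replicate numbers were not taken as pairs, the block added 8 calls for *Tug1* KD at Rest and 8 at EPS 3h in *Tug1* KD. Depth limits *Clcn1*, *Chrne* and *Pvalb* most.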
